A study of Homo sapiens with 32 samples.

Results

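The organic ion and bile acid transporters comprise 4 families of membrane proteins, and 49 of the 19974 protein-coding genes of the RefSeq table of GRCh38 carry one of their symbols. They were taken by symbol alone: 12 SLCO genes, 21 SLC22A genes, 9 SLC17A genes and 7 SLC10A genes. The repressive histone mark H3K27me3 was profiled by ChIPmentation, a chromatin immunoprecipitation with on-bead tagmentation, in 1 established line of triple-negative breast cancer cells, MDA-MB-231. The cells had received, for 24 h, the EZH2 inhibitor labelled EPZ (EP7 in the sample titles), the p38 inhibitor labelled P38i, both agents (combo), or neither (control, treatment label None, with no vehicle named). Each group had 4 H3K27me3 libraries, and all 4 groups share the 1 cell line. The labels do not say whether the replicates were separate cultures, so p-values measure the spread between these libraries, which may be technical. The 16 IgG libraries of the series had no file used here.

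H3K27me3 is written by Polycomb repressive complex 2, whose catalytic subunit is usually EZH2, and it commonly lies over genes that a cell type does not use. SLCO genes encode the organic anion transporting polypeptides, which take up bile acids, thyroid hormones, steroid conjugates, prostaglandins and drugs. The SLC22A family holds the organic cation, organic anion and carnitine transporters of liver and kidney. The SLC17A family holds the vesicular glutamate transporters and the phosphate and urate transporters, and the SLC10A family holds the sodium-dependent bile acid carriers. Many of these transporters are best known from liver, kidney, intestine, brain and testis, not from breast epithelium.

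Each library is a list of islands, regions that the authors' caller found enriched. The value used for a gene is the percent of its span, with 2.5 kb on each side, that islands cover. The lists held 53290 to 85194 islands over 474 to 674 Mb, and read depth is unknown. A list records where the mark was called, so a mark carried by fewer cells and a weaker mark in every cell cannot be told apart. The covered length was 474 to 587 Mb in EPZ, 533 to 674 Mb in P38i, 526 to 615 Mb in combo and 484 to 669 Mb in control libraries. EPZ replicate 1, control replicate 4 and EPZ replicate 2 had the 3 shortest lists. Of the genes listed as expressed in MDA-MB-231, VIM, CD44, AXL, CAV1, ANXA1 and KRT18 had no island in any library. Of 7 luminal breast markers, 4 had none, while PGR averaged 95.4%, FOXA1 56.6% and ESR1 10.2%. An island was likewise absent from 68.0% of all genes.

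The transporter genes ranged from bare to fully covered, and 22 of the 49 averaged between 5 and 95%. Of the 49 genes, 15 had no island in any of the 16 libraries, or 30.6%, against 13584 of all 19974 genes, or 68.0%. At the other end, 17 averaged at least 50% coverage over the 16 libraries, or 34.7%, against 10.6% of all genes. The median of the mean coverage was 15.5% over the 49 genes and 0 over all genes. The transporter genes are also longer than most, with a median span of 42.1 kb against 24.2 kb. In every one of the 16 libraries, 14 of them were at least 50% covered, or 28.6%, against 6.67% of all genes.

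The number of transporter genes at least 50% covered was 15.25 ± 0.957 in EPZ, 18 ± 1.83 in P38i, 16.0 ± 1.63 in combo and 17.75 ± 1.89 in control libraries (SD, n = 4 each). The groups overlapped, with 14 to 16 genes in EPZ, 16 to 20 in P38i, 14 to 18 in combo and 15 to 19 in control. The share of all genes past the same mark was 9.50% in EPZ, 12% in P38i, 10.5% in combo and 11.0% in control libraries.

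**Figure D1:**
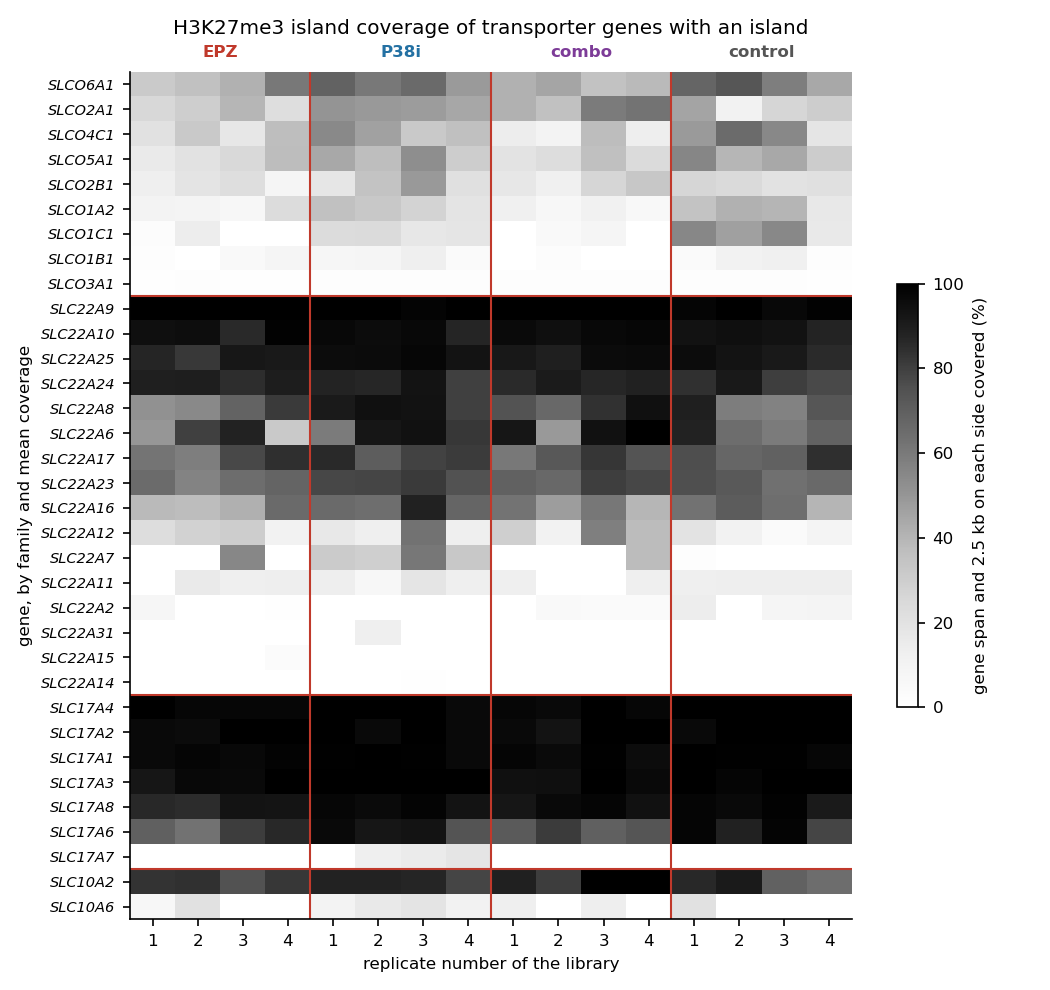
Percent covered by H3K27me3 islands in each of the 16 libraries, for the transporter genes with an island in at least 1 library, 1 row per gene grouped by family and 1 column per library grouped by treatment. The rows of the SLC17A1 to SLC17A4 genes, SLC22A9, SLC22A10 and SLC22A25 are dark in every column, while those of SLCO1C1 and SLCO1A2 are palest in the EPZ and combo columns.

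The families differed in how they were marked. Of the 9 SLC17A genes, 6 averaged at least 50% coverage, and the median of the family was 94.2%. Of the 21 SLC22A genes, 9 did so, and the family median was 15.5%. Only SLCO6A1 of the 12 SLCO genes and SLC10A2 of the 7 SLC10A genes averaged at least 50%, with family medians of 19.2% and 0. The genes also differ in length, with median spans of 107 kb for SLCO, 39.7 kb for SLC22A, 29.4 kb for SLC17A and 21.8 kb for SLC10A. The bare genes included SLC22A5, the plasma membrane carnitine transporter, SLC17A5, the lysosomal sialic acid exporter, SLC17A9, the vesicular nucleotide transporter, and SLC22A4, the ergothioneine transporter. They also included SLC10A1, the sodium-dependent bile acid carrier of hepatocytes, and SLCO1B3, an uptake carrier of the same cells. SLCO1B3-SLCO1B7, SLCO4A1, SLC22A13, SLC22A3, SLC10A3, SLC10A4, SLC10A5 and SLC10A7 also had no island. A further 7 genes averaged above 0 and below 5%, with SLCO1B1, a second hepatocyte uptake carrier, just under that limit at 4.89%.

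The phosphate and urate transporters SLC17A1, SLC17A2, SLC17A3 and SLC17A4 lie together at chr6:25723743-25930691 (GRCh38) and sat inside 1 H3K27me3 domain in every library. Their 206.949 kb were covered to 94.4 to 99.6% in the 16 libraries, by 2 to 10 islands. SLC17A4, an intestinal organic anion transporter, averaged 98.8%, SLC17A2 98.2% and SLC17A1 98.2% over the 16 libraries. SLC17A4 lies wholly inside the span of SLC17A1, and their windows share 31501 bp. Those 2 values are thus not independent, though each gene is counted. With islands joined over gaps under 10 kb, the domain was 322.8 to 334.2 kb long and 94.2 to 99.8% covered, by 2 to 17 islands. It held SCGN, a calcium-binding protein gene, at 95.2 to 100% coverage and ended before TRIM38, a ubiquitin ligase gene at 0 in all 16 libraries. The domain began 0.67 to 3.87 kb beyond the end of CARMIL1 and ended 5.202 to 15.602 kb before TRIM38. The edges thus lay within 3200 bp of each other on one side and 10400 bp on the other across all treatments. With coverage this near 100%, the genes above 95% were not tested for a treatment difference.

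SLC22A6 and SLC22A8 encode the organic anion transporters OAT1 and OAT3 of the kidney tubule, and with SLC22A24, SLC22A25, SLC22A10 and SLC22A9 they form a cluster of 433.698 kb on chromosome 11. Coverage of the whole cluster was 87.8 ± 1.89% in EPZ, 91.9 ± 3.12% in P38i, 90.7 ± 2.72% in combo and 87.5 ± 3.94% in control libraries (SD, n = 4 each), and no library fell below 83.0%. It was broken into 15 to 36 islands, beside 2 to 17 in the shorter SLC17A domain. SLC22A9 averaged 99.5%, SLC22A10 94.2% and SLC22A25 92%, the highest of the family. Coverage was lower and more spread at the SLC22A6 end. SLC22A8 was 51.7, 54.3, 68.1 and 81.4% covered in EPZ, 90.7, 94.3, 93.6 and 80% in P38i, 74.5, 66.7, 83.8 and 94.3% in combo, and 89.3, 58.8, 56.7 and 73.1% in control libraries. The P38i values were the highest as a group, but 1 control library lay among them, and the difference of 20.2 points between P38i and control did not pass (limma adjusted p = 0.423).

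**Figure D2:**
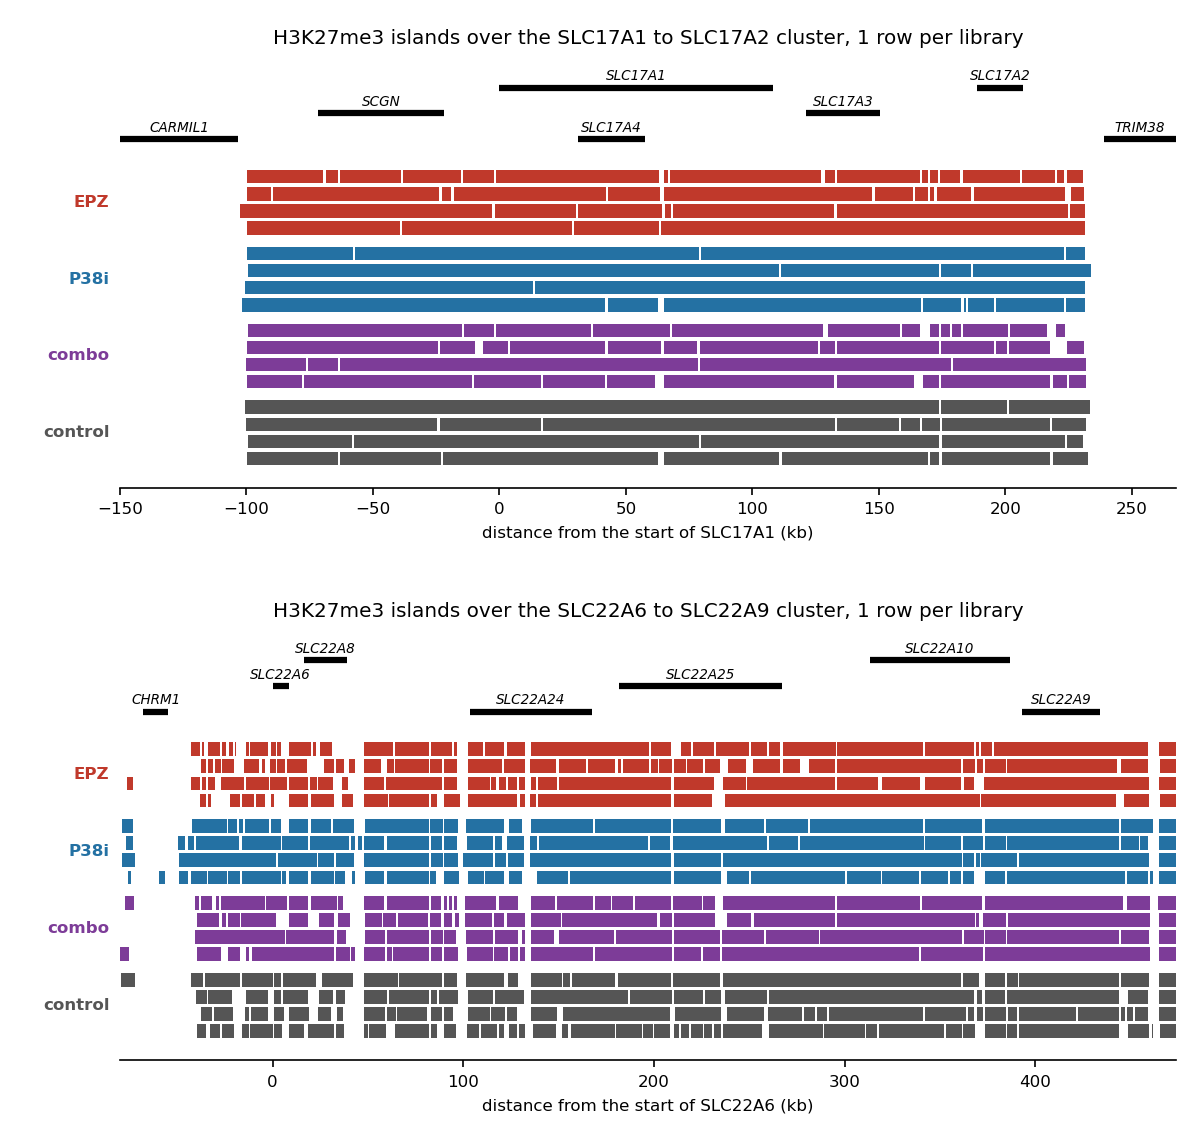
Islands of the 16 libraries over the SLC17A1 to SLC17A2 cluster (top) and the SLC22A6 to SLC22A9 cluster (bottom), 1 row per library coloured by treatment. The x axis gives distance in kb from the start of SLC17A1 or SLC22A6, and the genes are drawn above the rows. The SLC17A domain ends at nearly the same place in every row, and the SLC22A cluster is covered by many separate islands.

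The vesicular glutamate transporters were marked to very different degrees. SLC17A8 averaged 94.2% and SLC17A6 82.1%, while SLC17A7 was at 0 in all EPZ, combo and control libraries and at 0, 12.8, 15.2 and 18.7% in P38i libraries. In the SLC10A family, SLC10A2, the sodium-dependent bile acid transporter of the ileum, averaged 84.2%. SLC10A2 was 83.5, 84.3, 74.8 and 82.1% covered in EPZ, 87.9, 87.9, 87.2 and 78.4% in P38i, 89.1, 80.6, 100 and 100% in combo, and 86.4, 90.8, 68.9 and 64.6% in control libraries. Its 4 groups overlapped. SLC10A6, a carrier of sulphated steroids, averaged 8.07% and had an island in 9 of the 16 libraries, and every other SLC10A gene was bare.

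The RefSeq promoter table (GRCh38.p14, 250 bases before to 50 after an annotated start) held 34 of the 49 genes and 15812 genes in all. That start is not always the end of the span used for coverage. The windows of SLCO1A2, SLC22A23, SLC22A7, SLC22A14 and SLCO3A1 lie inside their gene spans. Promoters were divided by their number of CG dinucleotides (the letters CG, which read the same on both strands) at the median of all promoters, 22. None of the 11 transporter promoters with at least 22 CG was touched by an island in any library, against 16 of the 23 with fewer, or 69.6%. Among all genes an island touched 4.35% of the promoters with at least 22 CG and 25.7% of those with fewer. At least 1 CG occurs in 30 of the 34 transporter promoters, or 88.2%, and in 98.1% of all promoters. Of the 11 genes with CG-rich promoters, 10 averaged under 5% coverage over the whole gene, or 90.9%, beside 87.8% of all genes with at least 22 CG. The exception among the 11 was SLC22A16, a carnitine transporter of testis, with 39 CG and 57.3% mean coverage. With fewer than 22 CG, 21.7% of the transporter genes and 68.1% of all genes averaged under 5%. The promoters below are shown because they hold 2 to 39 CG and their genes range from bare (SLC22A5) to mostly covered (SLC17A6). Each is printed 5′ to 3′ on the gene's strand, with each CG in capitals. SLCO1A2 lies at chr12:21403602-21403901 (minus strand, 2 CG), SLC17A6 at chr11:22338131-22338430 (plus strand, 8 CG), SLCO4C1 at chr5:102296235-102296534 (minus strand, 20 CG), SLC22A16 at chr6:110476564-110476863 (minus strand, 39 CG) and SLC22A5 at chr5:132369460-132369759 (plus strand, 36 CG).
SLCO1A2: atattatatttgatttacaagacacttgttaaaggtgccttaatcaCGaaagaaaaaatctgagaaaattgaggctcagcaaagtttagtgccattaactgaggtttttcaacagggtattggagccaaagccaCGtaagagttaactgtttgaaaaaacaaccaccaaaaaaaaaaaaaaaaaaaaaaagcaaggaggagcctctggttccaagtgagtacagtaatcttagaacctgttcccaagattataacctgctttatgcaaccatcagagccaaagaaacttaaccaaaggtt
SLC17A6: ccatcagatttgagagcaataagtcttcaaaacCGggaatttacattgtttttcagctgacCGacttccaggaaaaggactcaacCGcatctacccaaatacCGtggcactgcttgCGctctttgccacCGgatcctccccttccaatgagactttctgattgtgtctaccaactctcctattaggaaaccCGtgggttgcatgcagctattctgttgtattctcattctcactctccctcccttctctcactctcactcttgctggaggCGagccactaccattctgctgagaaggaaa
SLCO4C1: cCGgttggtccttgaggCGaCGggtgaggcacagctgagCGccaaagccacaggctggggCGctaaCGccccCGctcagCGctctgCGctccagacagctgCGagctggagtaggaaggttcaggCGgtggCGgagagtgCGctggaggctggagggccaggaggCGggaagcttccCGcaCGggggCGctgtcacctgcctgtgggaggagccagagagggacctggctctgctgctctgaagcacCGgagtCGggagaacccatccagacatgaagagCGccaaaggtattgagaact
SLC22A16: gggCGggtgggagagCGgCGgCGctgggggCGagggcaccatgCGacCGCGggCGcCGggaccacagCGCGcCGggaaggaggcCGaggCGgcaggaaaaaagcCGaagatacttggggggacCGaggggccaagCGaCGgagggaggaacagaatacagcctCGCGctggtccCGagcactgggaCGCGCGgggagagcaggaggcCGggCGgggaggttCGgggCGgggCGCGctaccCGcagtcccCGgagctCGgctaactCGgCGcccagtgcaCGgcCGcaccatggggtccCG
SLC22A5: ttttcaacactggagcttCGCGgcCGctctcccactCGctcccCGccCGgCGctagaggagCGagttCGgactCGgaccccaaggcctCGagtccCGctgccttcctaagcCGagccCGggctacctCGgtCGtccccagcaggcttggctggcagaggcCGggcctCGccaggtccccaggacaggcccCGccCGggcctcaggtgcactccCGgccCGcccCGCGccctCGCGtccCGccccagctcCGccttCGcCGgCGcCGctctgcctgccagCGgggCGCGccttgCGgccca

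The SLCO1A2 promoter shown above, which lies inside the gene span, was touched by an island in 0 of 4 EPZ, 3 of 4 P38i, 0 of 4 combo and 4 of 4 control libraries. The SLC17A6 promoter was touched in 3 of 4 EPZ, 4 of 4 P38i, 2 of 4 combo and 4 of 4 control libraries. The promoters of SLCO4C1 and SLC22A16 were touched in none of the 16 libraries, although islands covered 33.6% and 57.3% of those genes on average. SLC17A8, with 11 CG, was covered to 85.4 to 98.9% over the gene in every library, yet its promoter was touched in 0 of 4 EPZ, 1 of 4 P38i, 2 of 4 combo and 3 of 4 control libraries. The promoters of SLC10A2, SLC17A1, SLC17A2, SLC17A3, SLC22A6 and SLC22A10 were touched in all 16.

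**Figure D3:**
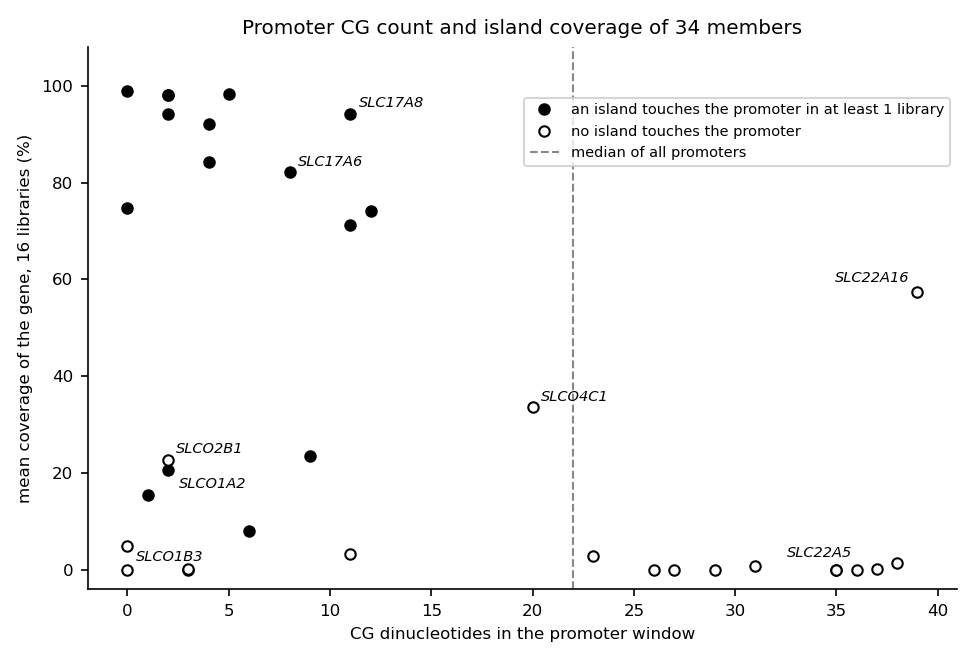
Mean coverage of each transporter gene over the 16 libraries (y axis, percent) against the number of CG dinucleotides in its promoter window (x axis), 1 point per gene, with a filled point where an island touched the promoter in any library and an open point where none did. Every filled point lies left of the dashed line at the median of all promoters, 22 CG.

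The 8 libraries with the EZH2 inhibitor (EPZ and combo) were compared with the 8 without it (P38i and control) to ask which transporter genes lost coverage when EZH2 was inhibited. Of the 49 genes, 22 had a mean coverage of 5 to 95% and entered the test with 4105 genes in all. Coverage was lower at 6 of them and higher at none: SLCO1C1, SLCO1A2, SLCO6A1, SLCO5A1, SLC17A6 and SLCO4C1. Among all genes tested, 15.6% were called lower and 0.877% higher. The difference was negative for 17 of the 22 genes, with a median of -5.22 points, beside -4.84 points over all genes tested. It was negative for 78.0% of all genes tested. Of the 6 genes, 5 belong to the SLCO family, which has 7 genes among the 22, the others being SLCO2A1 and SLCO2B1.

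SLCO1C1, which encodes a thyroxine carrier of the blood-brain barrier, lies at chr12:20695332-20753386 and had the largest difference. Coverage of SLCO1C1 was 2.17, 13.9, 0 and 0% in EPZ and 0, 5.07, 7.93 and 0% in combo, against 23.4, 23.7, 17.1 and 18% in P38i and 55.5, 46.6, 54.8 and 16.2% in control libraries. Every library with the EZH2 inhibitor lay below every library without it, which held for 1.56% of the genes tested, and the opposite held for 0.0244% of them and no transporter gene. Control replicate 4, which has the shortest control list, stood at the level of the P38i libraries. The difference was -28.3 points (SE 4.86, limma adjusted p = 0.00307), and 4 of the 8 libraries with the inhibitor were at 0.

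SLCO1A2, a broad organic anion carrier of brain capillaries and intestine at chr12:21264600-21419634, is at the other end of the same cluster. It was 9.44, 9, 6.5 and 23.2% covered in EPZ and 11.9, 6.62, 11.0 and 5.75% in combo, against 35.7, 32.7, 27.6 and 19.1% in P38i and 34.5, 41.2, 40.2 and 16.6% in control libraries. EPZ replicate 4 alone among the libraries with the inhibitor reached into the range of those without it. The difference was -20.5 points (SE 3.93, limma adjusted p = 0.00474).

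Across the whole cluster of 724.303 kb from SLCO1C1 to SLCO1A2, coverage was 3.54 ± 1.94% in EPZ, 9.47 ± 2.17% in P38i, 2.43 ± 1.05% in combo and 12.1 ± 4.64% in control libraries (SD, n = 4 each). The mark lay at the cluster's 2 ends: SLCO1B3 and SLCO1B3-SLCO1B7 between them carried no island in any library. SLCO1B1, also between them, was 0 to 8.10% covered with the EZH2 inhibitor and 1.76 to 13.2% without it. PDE3A, a phosphodiesterase gene next to SLCO1C1, averaged 22.8% in EPZ, 40.6% in P38i, 20.4% in combo and 45.8% in control libraries. Its coverage was lower with the EZH2 inhibitor by the same test, at -21.6 points (SE 4.53, limma adjusted p = 0.00711). PYROXD1, beyond SLCO1A2, was at 0 in every library.

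**Figure D4:**
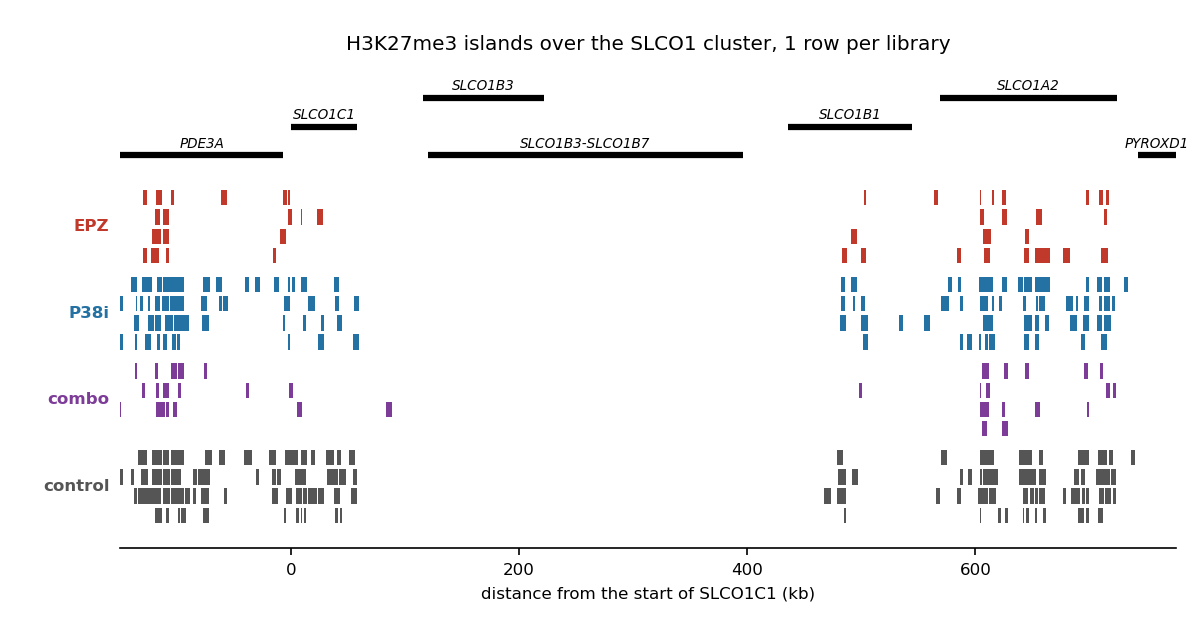
Islands of the 16 libraries over the SLCO1 cluster of chromosome 12, 1 row per library coloured by treatment. The x axis gives distance in kb from the start of SLCO1C1, and the genes are drawn above the rows. Islands at both ends are sparse in the EPZ and combo rows, and the middle over SLCO1B3 is empty in all 16 rows.

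SLCO4C1, a kidney carrier of cardiac glycosides and steroid conjugates, and SLCO6A1, a testis gene, are neighbours on chromosome 5. SLCO6A1 (chr5:102371774-102499001) was 31.6, 35.9, 41.2 and 60.4% covered in EPZ and 41.4, 45.1, 35.0 and 38.3% in combo, against 68.4, 60.5, 65.7 and 48.8% in P38i and 67.5, 73.4, 58.4 and 43.8% in control libraries. The difference was -19.7 points (SE 5.11, limma adjusted p = 0.0188), with EPZ replicate 4 high and control replicate 4 low within their groups. SLCO4C1 (chr5:102233986-102296284) was 20.4, 31.8, 16.8 and 36.9% covered in EPZ and 13.8, 10.1, 37.3 and 13.5% in combo, against 54.6, 46.2, 32 and 36.1% in P38i and 48.6, 65.6, 54.8 and 18.6% in control libraries. SLCO4C1 differed by -22.0 points (SE 6.55, limma adjusted p = 0.0349), and its control replicate 4 lay below 4 of the 8 libraries with the inhibitor. The SLCO4C1 call was kept in 5 of the 16 fits that each left out 1 library, those without EPZ replicate 4, P38i replicate 3 or 4, combo replicate 3 or control replicate 4. In the others its limma adjusted p was 0.0517 to 0.0732. The calls of SLCO1C1, SLCO1A2 and SLCO6A1 were kept in all 16.

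SLCO5A1, a family member whose substrates are poorly known, was 15.7, 19.5, 24.7 and 37.3% covered in EPZ and 19.4, 22.7, 36.3 and 23.6% in combo, against 43.8, 36.8, 52.6 and 30.2% in P38i and 55.6, 39.6, 43.9 and 30.6% in control libraries. Its difference was -16.7 points (SE 4.64, limma adjusted p = 0.0256). P38i replicates 2 and 4 and control replicate 4 lay inside the range of the libraries with the inhibitor. SLC17A6, the vesicular glutamate transporter of many subcortical neurons at chr11:22338381-22379503, stayed mostly covered in all groups. It was 69.4, 62.9, 80.7 and 86.6% covered in EPZ and 71.8, 81.1, 69.4 and 73.7% in combo, against 96.5, 92.4, 93.1 and 74.0% in P38i and 97.8, 88.3, 98.3 and 78.3% in control libraries. The difference of SLC17A6 was -15.4 points (SE 4.39, limma adjusted p = 0.0287), and the replicate 4 libraries of P38i and control overlapped those with the inhibitor. Leaving out 1 library at a time, SLCO5A1 was called in 11 of 16 fits and lost without EPZ replicate 1 or 2, P38i replicate 1 or 3 or combo replicate 1 (limma adjusted p of 0.0518 to 0.058). SLC17A6 was called in 8 of 16 and lost without EPZ replicate 1 or 2, P38i replicate 1, 2 or 3, combo replicate 1 or control replicate 1 or 3 (adjusted p of 0.0549 to 0.0624). The next gene beside it tested here, ANO5, was also lower with the inhibitor, at -23.7 points (SE 4.85, limma adjusted p = 0.00657).

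The length of the lists moved with these results. The 8 lists with the EZH2 inhibitor covered 474 to 615 Mb and the 8 without it 484 to 674 Mb. With covered length as a covariate, SLCO1C1 (limma adjusted p = 0.0146) and SLCO1A2 (adjusted p = 0.0182) were still called and the other 4 genes were not. All lists were also shortened to the 474 Mb of the shortest by dropping their narrowest islands first. None of the 6 was then called, and SLCO1C1 differed by -9.36 points (limma adjusted p = 0.112). Such shortening takes most from the longest lists and spares wide islands. Per library, the widest island over the SLCO1 cluster was 3.6 to 14.6 kb. List length and an effect of the inhibitor cannot be told apart here.

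**Figure D5:**
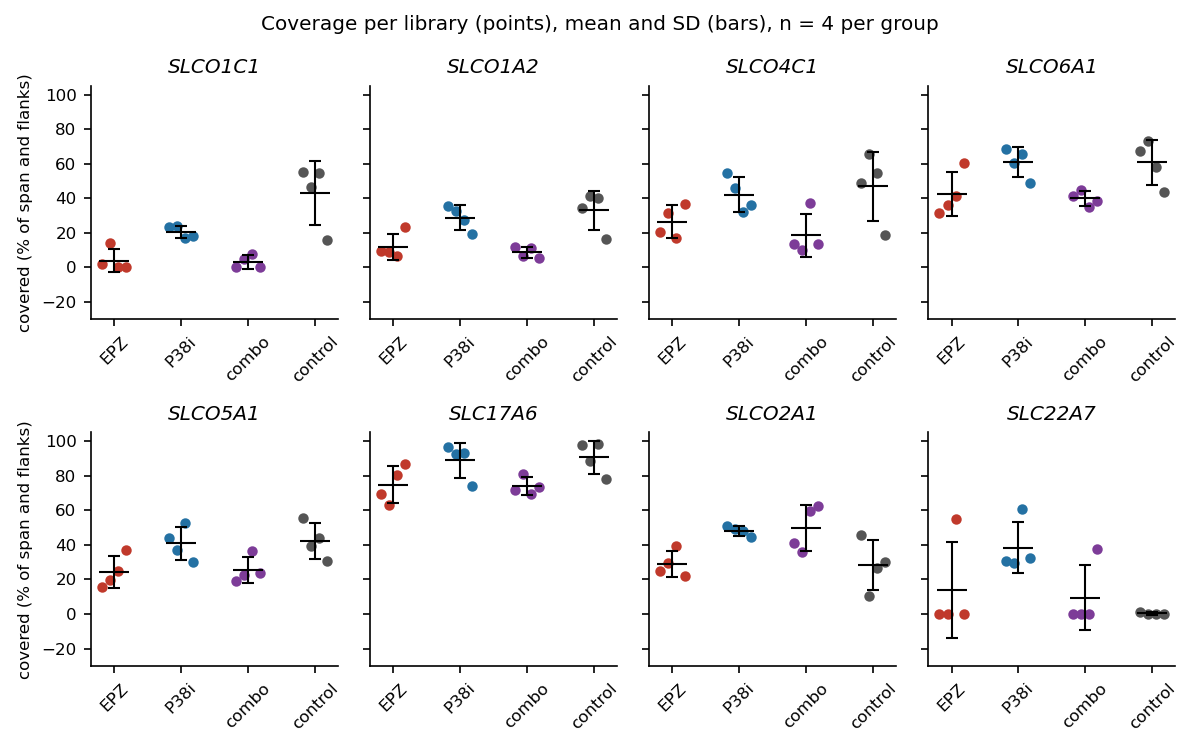
Percent of gene span with 2.5 kb on each side covered by islands (y axis), 1 panel per gene. Panels show SLCO1C1, SLCO1A2, SLCO4C1, SLCO6A1, SLCO5A1, SLC17A6, SLCO2A1 and SLC22A7, with the 4 libraries of each treatment as points and the mean and SD as a bar. The EPZ and combo points of SLCO1C1 all lie below the P38i and control points, and SLC22A7 is above 0 in all 4 P38i libraries.

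With EPZ alone against control, SLCO1C1 was the 1 transporter gene called, and it was lower, by -39.3 points (SE 6.88, 95% interval -54.0 to -24.5, limma adjusted p = 0.018). Among all genes tested, 3.05% were called lower and 0.122% higher. All its EPZ libraries lay below all its control libraries, as in 7.84% of the genes tested. In no transporter gene did all EPZ libraries lie above, as 0.56% of the genes tested did. The call was lost without control replicate 2 (limma adjusted p = 0.0602) or control replicate 3 (adjusted p = 0.0599). SLCO1A2 differed by -21.1 points and fell just outside the threshold (limma adjusted p = 0.0531). Of the 22 genes, 15 had lower and 7 higher mean coverage with EPZ, with a median difference of -5.69 points, beside -4.42 over all genes tested. Mean coverage was lower with EPZ in 73.1% of all genes tested. The number of transporter genes called was 5 without control replicate 4, 2 without EPZ replicate 4 or P38i replicate 4, and 0 without control replicate 2 or control replicate 3.

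With both inhibitors against control, the 2 ends of the SLCO1 cluster were called lower and no transporter gene higher. SLCO1C1 differed by -40.0 points (SE 6.88, limma adjusted p = 0.0192) and SLCO1A2 by -24.3 points (SE 5.56, 95% interval -36.2 to -12.4, adjusted p = 0.0422). Among all genes tested, 1.44% were called lower and 0.244% higher. In both genes all combo libraries lay below all control libraries, as in 6.46% of the genes tested, and no transporter gene had them all above (1.61% of the genes tested). With 1 library left out at a time, SLCO1C1 was called in 12 of 16 fits, and it was lost without combo replicate 1 or 4 or control replicate 2 or 3. SLCO1A2 was called in 5 of 16 fits: it was lost without any 1 of the combo replicates, without EPZ replicate 1 or 2, P38i replicate 2 or 3, or control replicate 1, 2 or 3 (limma adjusted p of 0.0511 to 0.132). Without control replicate 4, 4 transporter genes were called. SLCO1A2 also lost its call when the replicate number was a block (limma adjusted p = 0.0738). EPZ and combo share the control libraries, and the other 4 genes called for the EZH2 inhibitor over all libraries had these values side by side. SLCO4C1 differed by -20.4 points with EPZ and -28.2 with combo, SLCO6A1 by -18.5 and -20.8, SLCO5A1 by -18.1 and -16.9, and SLC17A6 by -15.8 and -16.7, none of them called in either comparison. The median difference of the 22 genes was 0.346 points, with 11 lower and 11 higher, beside -1.05 points over all genes tested, of which 56.1% were lower.

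With P38i against control, no transporter gene was called by limma, and 4 of the 22 had an unadjusted p under 0.05, against 416 of all genes tested. Among all genes tested, 0.292% were called higher and 0.0% lower. Of the 22 genes, 6 had lower and 16 higher mean coverage with P38i, with a median difference of 4.70 points beside 2.90 over all genes tested. Mean coverage was lower with P38i in 28.7% of all genes tested. SLC22A7, the organic anion transporter OAT2 of liver at chr6:43295714-43305538, was the 1 gene whose P38i libraries all lay above the control libraries, as in 3.24% of the genes tested, and none had them all below (0.171% of the genes tested). SLC22A7 was 0, 0, 55.2 and 0% covered in EPZ, 30.9, 29.7, 60.6 and 32.3% in P38i, 0, 0, 0 and 37.8% in combo, and 1.26, 0, 0 and 0% in control libraries. It had islands in every P38i library and in 1 library each of the other groups, and the difference of 38.1 points did not pass (limma adjusted p = 0.278). SLCO1C1, with the largest moderated t of the 22 genes, differed by -22.7 points (SE 6.88, limma adjusted p = 0.251). Without control replicate 4 it differed by -31.7 points and passed (limma adjusted p = 0.00315).

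The 8 libraries with the p38 inhibitor, set against the 8 without it, again gave no called transporter gene, with 6 at an unadjusted limma p under 0.05 and 544 among all genes tested. Among all genes, 0.0% were called lower and 0.122% higher. SLCO2A1, the prostaglandin transporter at chr3:133932701-134029925, had the largest moderated t. It was 50.7, 48.9, 47.9 and 44.4% covered in P38i and 41.1, 35.6, 59.7 and 62.4% in combo, against 25, 29.7, 39.5 and 22.1% in EPZ and 45.6, 10.6, 26.4 and 30.3% in control libraries. All but 2 of the libraries without the inhibitor lay below every library with it. The difference of 20.2 points (SE 5.23) did not pass (limma adjusted p = 0.144), and it did without control replicate 1 (adjusted p = 0.0499). Without control replicate 4, SLCO1C1 was called lower in this comparison instead.

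Adding P38i to EPZ gave no called transporter gene: in combo against EPZ, 3 of the 22 had an unadjusted limma p under 0.05, against 224 of all genes tested, of which 0.0% were called in either direction. No transporter gene had all combo libraries below or all above the EPZ libraries, against 0.171% and 2.8% of the genes tested. SLCO2A1 had the largest moderated t there, at 20.6 points (SE 7.40, limma adjusted p = 0.746). Adding EPZ to P38i gave none either, with 8 transporter genes and 830 of all genes at an unadjusted limma p under 0.05, and 1.85% of all genes called lower and 0.0731% higher. In combo against P38i, the combo libraries of 4 transporter genes all lay below the P38i libraries, as in 10.0% of the genes tested, and none had them all above (0.828% of the genes tested). The 4 were SLCO1A2, SLCO1C1, SLCO6A1 and SLC22A16. SLCO1A2 had the largest moderated t, at -20.0 points (SE 5.56, limma adjusted p = 0.0813). It passed without P38i replicate 4 (limma adjusted p = 0.0349) or control replicate 4 (adjusted p = 0.0329). SLC22A16 was 62.2, 47.4, 60.8 and 39.5% covered in combo and 65.7, 64.3, 88.6 and 67.3% in P38i libraries.

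The interaction (the combo minus EPZ difference, less the P38i minus control difference) asks whether the effect of one inhibitor depended on the other. No transporter gene was called by limma, 2 had an unadjusted p under 0.05 against 141 of all genes tested, and 0.0487% of all genes were called lower and 0.0% higher. SLC22A7 had the largest moderated t, at -42.4 points (SE 16.9, limma adjusted p = 1). The interaction of SLCO1C1 was 21.9 points (limma adjusted p = 1), beside differences from control of -39.3 with EPZ, -22.7 with P38i and -40.0 with combo. SLCO1C1 averaged 4.02% in EPZ libraries, so adding P38i to EPZ could not lower it by 22.7 points. Near that floor the interaction cannot show whether one effect depends on the other.

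Genes that act with these transporters were counted from lists chosen by function. Over all genes, 68.0% had no island and 10.6% averaged at least 50%, and 15.6% of those tested were lower with the EZH2 inhibitor. Whether the calls of listed genes depend on list length was not tested. Of 13 bile acid synthesis and conjugation genes, 6 had no island, 5 averaged at least 50% and 7 were tested. With the EZH2 inhibitor over all libraries, 1 of the 7 was lower, CYP7B1, an oxysterol hydroxylase (-17.4 points, SE 5.08, limma adjusted p = 0.0320). Of 16 efflux partners, 10 had no island and 2 of the 4 tested were lower in the same comparison. These were ABCB1, the drug efflux pump P-glycoprotein (-20.7 points, adjusted p = 0.00711), and ABCB11, the bile salt export pump (-11.4 points, adjusted p = 0.0310). ABCB1 was covered to 53.9 to 78.9% with the inhibitor and to 71.7 to 89.5% without it. Of 15 regulators and scaffolds, 9 had no island and 4 were tested. NR1H4, the bile acid receptor FXR, was lower with EPZ against control (-8.45 points, limma adjusted p = 0.0433) and over all libraries with the EZH2 inhibitor (-6.07 points, adjusted p = 0.0146). Of 8 other vesicular and monoamine transporters, 1 had no island, 6 were tested and none was called by limma in any of the 8 comparisons. Of 7 hepatocyte markers, 3 had no island and 4 were tested, with ALB lower with the EZH2 inhibitor (-32.0 points, limma adjusted p = 0.0157), and of 6 kidney proximal tubule markers, 5 had no island while LRP2 averaged 79.6%.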

How the data were processed

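H3K27me3 ChIPmentation libraries of MDA-MB-231 were available as 1 island list each. The authors' deposited lists hold only island positions, on build hg38 per the labels, with no score, count or p-value. The submitters' processing notes name the island caller SICER, the aligner Bowtie2 2.3.4.1, SAMtools 1.2, Picard, bedtools 2.28.0, and, for read checks and trimming, FastQC, cutadapt and Trim Galore. For these tools, order and settings were not given in the sources used here. Island bounds fall on windows of 200 bp, and a caller's settings affect where islands join.

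Coverage of each gene span with 2.5 kb on each side was computed with Python 3.11.15, numpy 2.4.6 and pandas 2.3.3. For 500 genes bedtools 2.31.1 gave the same values (largest difference 0). Coverage was tested on its own scale with limma 3.58.1 in R 4.3.3 (robust, with a trend) in 1 fit of 16 libraries. Genes with mean coverage of 5 to 95% were tested (4105 genes, with 15518 below and 351 above), and adjusted p-values follow Benjamini-Hochberg within each of 8 contrasts at a threshold of 0.05. Differences are in percentage points of the gene window. A gene at 0 in several libraries of a group has a spread that may be too small for other groups. The fit was tested on simulated data. Named genes were those called in any comparison, the one with the largest moderated t where none was called, and the 3 best covered of each family. SLC22A8, SLC22A16, SLC22A7 in the P38i comparison, SLC17A7, SLC17A8, SLCO1B1, the neighbours and the printed promoters were chosen after their values were seen. The members and lists were chosen with earlier results of these data known. A transporter gene and a marker gene are counted but not reported here by name.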

Additional observations from a re-analysis of the deposited data

Results flagged for a closer look

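In 21 transporter genes screened (those called, with the largest moderated t or best covered in their family, and SLC22A8, SLC22A16, SLC17A7, SLC17A8 and SLCO1B1), single libraries stood far from the other 3 of their group in 16 of 78 groups with any spread. A chance rate of about 1 in 20 holds for normal values without ties. Coverage is bounded at 0 and 100%, and where the other 3 libraries tie, any departure is flagged. Several flags below are of that kind, so 16 of 78 cannot be set against 1 in 20. No difference between groups was flagged. At SLC22A7 the library apart was EPZ replicate 3 at 55.2% against 0 in the others, P38i replicate 3 at 60.6% against 29.7 to 32.3%, combo replicate 4 at 37.8% against 0, and control replicate 1 at 1.26% against 0. At SLCO1C1, EPZ replicate 2 was at 13.9% against 0 to 2.17%, and at SLCO4C1, combo replicate 3 was at 37.3% against 10.1 to 13.8%. At SLC22A16, EPZ replicate 4 was at 65.7% against 37.1 to 41.5%, and P38i replicate 3 at 88.6% against 64.3 to 67.3%. At SLCO1B1, combo replicate 2 was at 2.46% against 0. At SLC10A6, control replicate 1 was at 20.3% against 0. P38i replicate 4 was low at SLC10A2, at 78.4% against 87.2 to 87.9%, at SLC22A10, at 87.2% against 95.7 to 96.9%, and at SLC17A4, at 96.8% against 100%. It has the shortest P38i list, 533 Mb, whose part in these values was not tested. The last 3 differ by under 4 points: SLC17A4 in EPZ replicate 1 was at 100% against 97.5%, SLC17A2 in control replicate 1 at 96.5% against 100%, and SLC22A9 in P38i replicate 3 at 98.4% against 100%.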

How the results depend on the processing

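Of the 14 gene differences refitted under each alternative (those called, and the largest moderated t where none was), none changed sign. With all lists shortened to the length of the shortest by dropping narrow islands, the number of transporter genes called was 0 for EPZ, 0 for combo and 0 for the EZH2 inhibitor over all libraries, in place of 1, 2 and 6. A fit of only the compared groups gave 0 for EPZ, 0 for combo and 1 for combo against P38i, in place of 1, 2 and 0. Covered length as a covariate gave 5 for combo (4 lower, SLC10A2 higher) and 2 for the EZH2 inhibitor. A flank of 5 kb gave 2 for EPZ, and no flank or no filter on coverage gave 1 each for combo. Leaving out the library with the smallest covered length in each group, chosen after seeing the data, gave 2 for EPZ, 1 for P38i, 2 for combo, 1 for combo against P38i and 6 for the EZH2 inhibitor. Leaving out 1 library at a time gave 0 to 5 for EPZ, 0 to 1 for P38i, 0 to 4 for combo, 0 to 0 for combo against EPZ, 0 to 2 for combo against P38i, 3 to 7 for the EZH2 inhibitor, 0 to 1 for the p38 inhibitor and 0 to 0 for the interaction. The 3 came without EPZ replicate 1, EPZ replicate 2, P38i replicate 1 or combo replicate 1. Over all genes tested, calls for the EZH2 inhibitor were 678, against 387 with the covariate and 159 at equal length. Combo calls were 69, against 357 with the covariate, and EPZ calls were 130, against 15 at equal length. The mean number of transporter genes covered, 16.75 at a limit of 50%, was 20.8 at 25% and 12.4 at 75%. Same-numbered libraries correlated at -0.151 to 0.178 in their deviations, so the numbers are not taken as pairs; with the replicate block the count was 1 for combo and 5 for the EZH2 inhibitor. Depth is unknown, so a gene without an island may carry a mark below the caller's limit.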
